A study of Mus musculus with 574 samples.

Results

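The ribosomal protein genes described here are the 84 gene rows whose mouse symbol is Rpl or Rps followed by a number, with at most one added letter of a, x, l or y and further digits. They were picked by symbol alone from 46078 gene rows, which leaves out the kinases with similar names, the rows named as pseudogenes and the P-stalk genes. Of the 84, 49 belong to the large subunit (Rpl) and 35 to the small subunit (Rps). The annotation lists 79 as protein coding and 5 as pseudogenes (Rps4l, Rps3a2, Rps3a3, Rpl6l and Rps12l1). The study sorted single granulocyte-macrophage progenitors (GMPs, marrow progenitors of neutrophils and monocytes) of C57Bl/6 mice and counted their RNA cell by cell. The mice were wild type and 6 to 12 weeks old, and by the protocol each received 5-fluorouracil once at 150 mg/kg (5-FU, a drug that kills dividing marrow cells). All cells carry the treatment label 5-FU, day 0 included, and the protocol also names PBS controls without saying which sets they gave. The sets are day 0 (92 cells kept), day 8 set 1 (90), day 8 set 2 (93), day 10 (93), day 12 (85) and day 14 (47). Cells of 1 set are not replicates, so counts were summed per set, and day 8 is the single day with 2 sets. Whether those 2 sets came from different mice is not in the labels. The p-values below rest on the spread between these 2 sets alone, which may be technical. That spread was largely pooled over the 15145 tested genes (1 residual degree of freedom per gene beside 51.5 from the pooled spread). A gene's own difference between the day 8 sets thus weighed little in its p-value. Values given "in set order" run day 0, day 8 set 1, day 8 set 2, day 10, day 12, day 14.

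Ribosomal proteins are the structural proteins of the cytoplasmic ribosome, 1 copy of nearly every kind in each particle, and cells coordinate their synthesis with growth. Their mRNAs are short and abundant and begin with a run of pyrimidines, the 5′ TOP motif, through which their translation is controlled as a group. Mammalian genomes also hold many processed pseudogenes of these genes, which are copies of the spliced mRNA. Some members have a paralogue with a narrower pattern of expression, such as Rpl3l in muscle and Rpl10l in testis.

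The start sites of several genes described below are shown to let a reader see where the pyrimidine run is present and where it is not. They were not drawn at random and do not give the family's share. Each line gives 15 bases before and 15 bases from the RefSeq start on GRCm38.p6, 5′ to 3′ on the gene's strand, with a run of C and at least 4 further pyrimidines in capitals where it begins exactly at the annotated start.
Rps6 (chr4:86857353-86857382, minus strand): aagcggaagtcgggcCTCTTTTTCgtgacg
Rpl15 (chr14:18270972-18271001, minus strand): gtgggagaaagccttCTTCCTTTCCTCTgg
Rpl38 (chr11:114668565-114668594, plus strand): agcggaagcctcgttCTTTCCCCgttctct
Rps21 (chr2:180257364-180257393, plus strand): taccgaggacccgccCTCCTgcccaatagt
Rps27 (chr3:90213634-90213663, minus strand): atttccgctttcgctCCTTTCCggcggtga
Rps16 (chr7:28350674-28350703, plus strand): cccgcttctgtcgtgacgtagcactcaatg
Rpl4 (chr9:64173372-64173401, plus strand): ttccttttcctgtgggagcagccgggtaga
Rpl37 (chr15:5116598-5116627, plus strand): agtttcctgggcggaagcttatccacagga
Rpl39 (chrX:37085208-37085237, minus strand): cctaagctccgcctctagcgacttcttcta
Rpl27 (chr11:101442230-101442259, plus strand): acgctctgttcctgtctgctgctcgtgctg
Rps28 (chr17:33824548-33824577, minus strand): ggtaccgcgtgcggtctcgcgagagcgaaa
The RefSeq table held 60 of the 84 symbols. A symbol with several starts was counted if any of them had a run. Rps21 has another RefSeq start (chr2:180257434-180257463), not shown above, with no run at its exact position. A run at the exact start was found for 12 of these 60 members (20%) and for 813 of 27025 symbols in the table (3.01%). Within 10 bases either side of the start, the counts were 38 of 60 (63.3%) and 9297 of 27025 (34.4%). Rps16, Rpl4, Rpl37, Rpl39, Rpl27 and Rps28 had no run at the annotated start, which says only that those letters are not at that position.

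A second pair of sequences shows why a read of a member can be hard to place. The coding sequence of Rps28 (210 bases with its stop codon) and the processed pseudogene Gm3511 differed at 2 of 204 aligned bases, G69A and G152A, counted from the A of the Rps28 start codon with the Rps28 base first. Bases 59 to 162 are given from the GENCODE vM21 transcripts, with the differing bases in capitals.
Rps28: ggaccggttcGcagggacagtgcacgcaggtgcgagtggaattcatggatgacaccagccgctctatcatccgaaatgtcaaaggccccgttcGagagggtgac
Gm3511: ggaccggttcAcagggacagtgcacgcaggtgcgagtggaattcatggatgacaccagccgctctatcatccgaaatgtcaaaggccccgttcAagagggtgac
For Rps13 and Rps13-ps2 the aligned 453 bases held 0 differences, and for Rps16 and Rps16-ps2 the aligned 441 bases held 0.

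Depth differed between sets, with a median of 79451 reads in genes per kept cell on day 14 and 145092 to 289938 in the other 5 sets. The ratio of gene reads to spike-in reads, a measure of cDNA per cell, had medians of 40.9, 78.9, 71.8, 59.05, 49.9 and 42.5 in set order. The 5 genes of the sort gate had reads in every set, with a summed level of 827 to 995 CPM (counts scaled to the library total after its TMM factor, which was 0.829 on day 14 and 1.01 to 1.08 in the other sets). This sum hides changes in single genes. Their median log2 fold change was -0.64 for day 8 against day 0, with 1 of 5 called lower. For day 14 against day 8 it was 0.83, with 2 of 5 called higher. The erythroid list summed to 146 and 176 CPM at day 8 and to 9.73 to 54.9 CPM in the others. The monocyte list summed to 1371 and 566 CPM at day 8 and to 1942 to 6384 CPM in the others. In set order the stem and multipotent list summed to 471, 1145, 1483, 947, 603 and 588 CPM, and the 9 granule genes to 83665, 38444, 29774, 85164, 82544 and 78798. The 2 genes of the RNA quality list summed to 548, 214, 296, 235, 369 and 411 CPM, and both were called lower than day 0 on days 8 and 10. Their part in the members' values was not tested. The phosphate transporter gene Slc34a2 alone held 9.68% to 31.2% of the gene reads of the median cell of a set, the highest on day 14.

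The members' reads were concentrated in a few genes. Rpl4, a large-subunit protein that lines the peptide exit tunnel, held 20% of all member reads, and Rps3 held 9.14%. Per kb of exon, high mean levels over the 6 sets were 1753 CPM for Rpl4, 965 for Rpl8 and 880 for Rpl32. Rpl4 measured 3529, 3897, 3388, 3878, 3373 and 3047 CPM in set order. Days 0 and 10 lay between the 2 day 8 sets, and days 12 and 14 lay below both. Rpl8 measured 1213 to 1402 CPM over the 6 sets.

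The lowest levels per kb were those of Rpl10l (0.0857 CPM), Rps12l1 (0.116), Rpl3l (0.262), Rpl39l (0.295) and Rps3a2 (1.12). The first 4 of these are the members that did not pass the filter on low counts. Rpl39l had reads in 2 sets (7 on day 8 set 1 and 35 on day 10), Rps12l1 had 8 reads in all, and Rpl10l had 8. Rpl24, a protein-coding member, had 1.93 CPM per kb, which was the lowest of the 76 protein-coding members tested.

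Level was higher in classes of members with more sequence of their own. For each member the annotated principal mRNA was divided into 50-base stretches at every position, and the share found in no transcript of another locus was taken. The median member had 48.8% unique stretches, Rps27 had 1.35%, and 21 of the 84 members had under 25%. Among the 76 tested protein-coding members, the 18 with under 25% had a median of 13.01 CPM per kb, the 21 with 25% to 50% had 38.6, the 26 with 50% to 75% had 56.2, and the 11 with 75% or more had 296. The ranges overlapped, from 1.93 to 60.2 in the lowest class and from 25.9 to 1753 in the highest. Spearman's rho over these 76 genes was 0.47 for 50-base stretches and 0.60 for 100-base stretches. The genes share libraries and counting, and are not independent replicates.

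**Figure D1:**
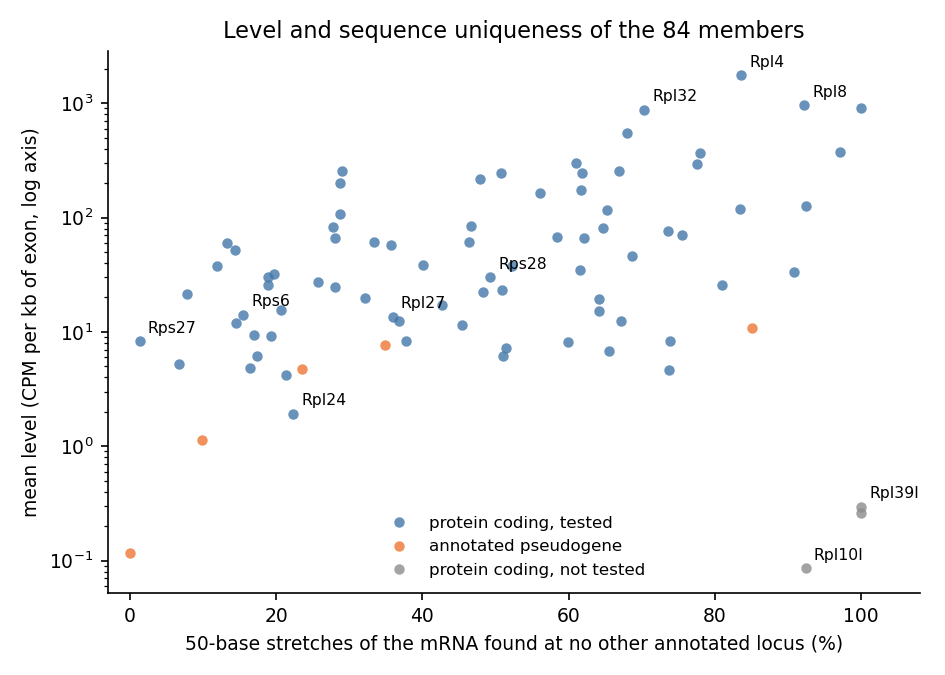
Mean level over the 6 sets (CPM per kb of exon, log axis) against the percentage of 50-base stretches of the mRNA found at no other annotated locus, 1 point per member. Rpl4 and Rpl8 sit at the top right, and the members with under 25% unique stretches all lie at or below 60.2 CPM per kb.

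Rows outside the family share its sequence and hold reads. A total of 792 other gene rows, nearly all annotated as processed pseudogenes, shared 1 or more 50-base stretches with 77 of the members. Which locus those reads came from was not tested. In 35 of these 77 the summed level of such rows exceeded the level of the member. The row sharing sequence with Rpl14 had a mean of 653 CPM against 405 for Rpl14. The 5 rows sharing sequence with Rps13 had 185 CPM against 25.2 for Rps13, and the 4 rows of Rps16 had 206 against 85.0. The 3 rows of Rpl23 had 620 against 206. Rpl8 lay at the other end, with 1 such row at 0.196 CPM against 1312 for the gene. All these rows together took 0.811% to 1.03% of reads in genes per set, beside 1.61% to 2.08% in the members.

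In each set the members took about the same small share of the reads. The share was 1.85%, 1.89%, 2.08%, 1.83%, 1.73% and 1.61% in set order, with 95% Wilson intervals of 1.85 to 1.86 for day 0 and 1.60 to 1.62 for day 14. These intervals cover counting error only, since the reads carry no molecular identifiers. Days 0 and 10 lay just below the 2 day 8 sets, and days 12 and 14 lay further below. The difference between the day 8 sets was larger than the distance of day 0 or day 10 from day 8 set 1. With 1 set per day there is no test of the share. The share from large-subunit members was 1.02%, 1.07%, 1.12%, 1.03%, 0.951% and 0.828% from day 0 to day 14, and that from small-subunit members was 0.835%, 0.811%, 0.959%, 0.800%, 0.775% and 0.782%.

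The denominators moved these shares. Without Slc34a2 and the row CT010467.1 the share was 2.40%, 2.29%, 2.67%, 2.22%, 2.23% and 2.54% in the same order, so that day 14 was above day 0. Against spike-in reads the members had 0.755, 1.501, 1.504, 1.12, 0.749 and 0.588 reads per spike-in read in set order. On this scale day 8 was 1.99 times day 0 in both sets, and day 14 was 0.778 times day 0. Fewer RNA molecules per cell and less efficient cDNA synthesis cannot be told apart on it.

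Single cells of a set resembled each other in this share, apart from a tail of low cells. The median cell had 1.80%, 1.87%, 2.07%, 1.77%, 1.70% and 1.69% from day 0 to day 14, and no cell exceeded 3.07%. Under 0.5% lay 17 of 500 kept cells, namely 0, 0, 1, 3, 4 and 9 in set order. In those 17 cells Slc34a2 took 32.02% to 89.2% of the reads. Within sets, the rank correlation between a cell's member share and its gene-to-spike ratio was 0.19, 0.01, 0.35, 0.25, 0.38 and 0.74. With Slc34a2 and CT010467.1 left out of the share it was -0.05, -0.21, -0.10, -0.07, 0.01 and 0.49, so that it was clearly positive on day 14 alone. With the Slc34a2 share it was -0.45, -0.02, -0.40, -0.28, -0.43 and -0.69. These rest on 47 to 93 cells per set. The cell's gene reads are the denominator of both shares and the numerator of the gene-to-spike ratio.

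**Figure D2:**
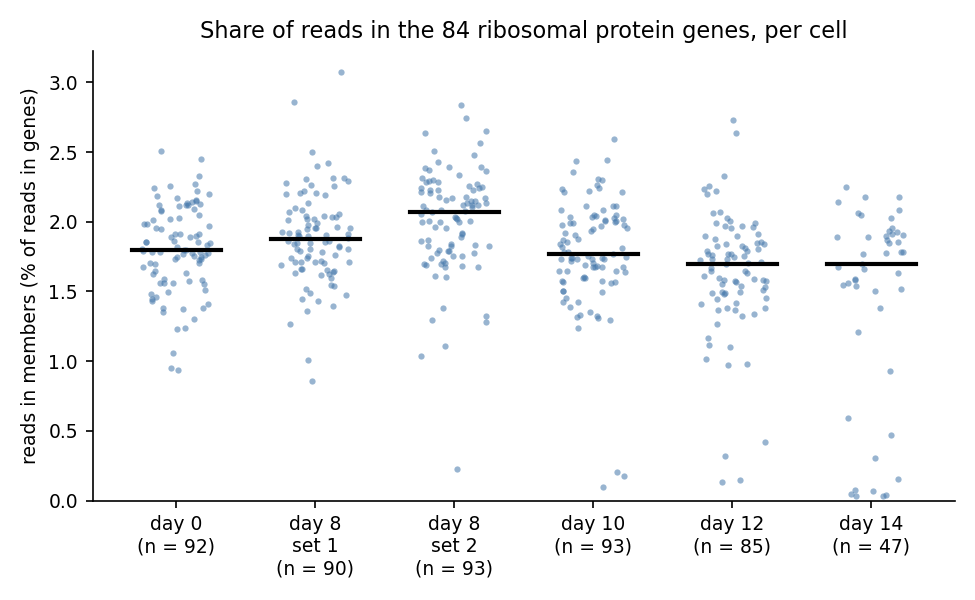
Percentage of reads in genes that fell in the 84 members, for each of 500 kept cells, by set, with the set's median as a black line. The medians lie between 1.69% and 2.07%, and 9 of the 17 cells under 0.5% are on day 14.

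The fold changes of the tested members lay in a narrower range than those of all genes. Fold changes and adjusted p-values are from edgeR's quasi-likelihood test over 15145 genes (Benjamini-Hochberg adjustment, threshold 0.05), on CPM scaled by TMM, a method that assumes most genes to be stable. Of the 84 members, 80 were tested. Between days 8 and 0, 0 of 80 were called higher and 1 lower, against 5.63% of all tested genes called in either direction. The counts were 0 higher and 1 lower for day 10 (1.45% of all genes) and 0 and 1 for day 12 (0.172%). They were 1 and 0 for day 14 against day 0 (1.58% of all genes). Against day 8, the counts were 0 and 0 for day 10 (0.792% of all genes), 0 and 0 for day 12 (2.5%), and 2 and 1 for day 14 (14.2%). A single call among 80 lay near the share of all genes on days 10 and 14 against day 0, and above it on day 12. The 0 calls for day 10 against day 8 also lay near that share. Beside the counts of 0 against day 8, 1 member had an unadjusted p under 0.05 on day 10 and 3 on day 12, and DESeq2 and limma voom called 0 in both comparisons.

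The median log2 fold change of the 80 members was 0.015 for day 8 against day 0, -0.033 for day 10, -0.13 for day 12 and 0.17 for day 14, while the median of all genes lay between -0.013 and 0.010. Against day 8 it was -0.086, -0.19 and 0.033 for days 10, 12 and 14. The middle range of members was narrow: between days 8 and 0 their quartiles were -0.13 and 0.22, against -0.52 and 0.43 for all genes. Among genes at a mean of at least 32 CPM, the standard deviation of the log2 fold change between days 8 and 0 was 0.29 over 52 members and 0.55 over 4490 genes, and between days 14 and 8 it was 0.58 and 0.72. For 59 of 80 members the 95% interval of the day 8 to day 0 difference lay within 1 log2 unit of 0. Large- and small-subunit members had medians of 0.020 and 0.009 in that comparison. For days 14 and 8 they were -0.023 and 0.16.

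Abundant members illustrate this. The log2 fold changes between days 8 and 0 were 0.05 (SE 0.30) for Rpl4, 0.10 (SE 0.29) for Rpl8 and -0.22 (SE 0.28) for Rpl32. Some members of low level lay further out without passing. Rps6, whose protein is phosphorylated downstream of mTOR, had 14.7 CPM on day 0 against 30.2 and 28.7 at day 8 (log2 fold change 1.01, SE 0.37, edgeR adjusted p = 0.101). Rpl15, of the large-subunit core, had 33.2 CPM on day 0 against 50.97 and 60.9 at day 8 (0.75, SE 0.29, edgeR adjusted p = 0.121). Both day 8 values lay above the day 0 value for each of these 2 genes. Rps19, a protein needed to mature the small subunit and mutated in Diamond-Blackfan anaemia, measured 303, 224, 273, 260, 291 and 369 CPM and passed in no comparison.

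**Figure D3:**
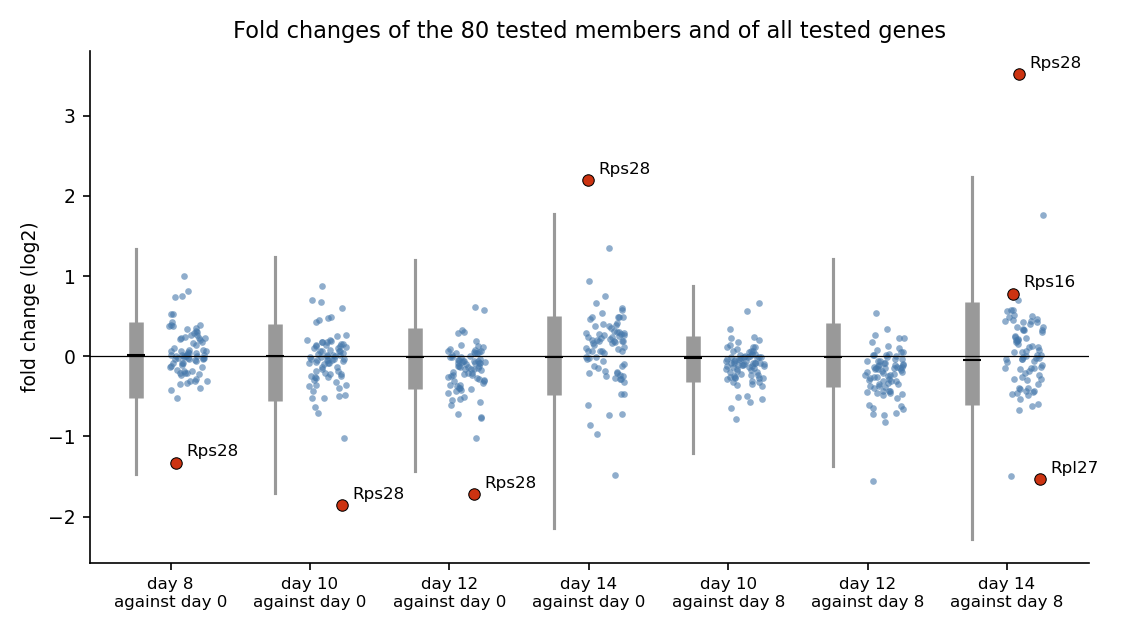
Log2 fold changes in the 7 comparisons. Grey bars give the quartiles (thick), the 5th to 95th percentiles (thin) and the median of all 15145 tested genes, blue points the 80 tested members, and red points the members with an edgeR adjusted p under 0.05, which are Rps28, Rpl27 and Rps16.

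Differences among the more abundant members went with coding length in most comparisons. The 2 day 8 sets, which carry the same labels for strain, treatment and day, differed from each other in the members. Of 80 tested members, 65 were higher in set 2, with a median log2 ratio of 0.17 (pseudocount 0.5 CPM), while 7474 of 15145 tested genes were higher there, with a median of -0.006. Rps28 had the highest ratio (1.51), followed by Rpl37 (0.95) and Rpl39 (0.94), and Rpl38 (0.82) and Rps21 (0.81) were also high. These 5 genes encode some of the smallest ribosomal proteins. Rps13, which is longer and has a mean below 32 CPM, was also among the highest, with 18.8 CPM in set 1 and 36.2 in set 2. For Rpl37 the levels were 55.1 CPM in set 1 and 107 in set 2, and for Rpl39 they were 120 and 231.

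Over the 52 members at 32 CPM or more, the log2 ratio between the day 8 sets had a Spearman's rho of -0.75 with coding length (without the stop codon), and of -0.74 without Rps28. The 17 members under 400 coding bases had a median log2 ratio of 0.43, the 16 from 400 to 600 bases had 0.23, and the 19 from 600 bases had 0.06. Over 4199 other genes at that level the same rho was -0.15, and over the 2243 of them no longer than the longest member it was -0.28. Their medians also fell with length, so the ordering was not particular to the members. They were 0.16 under 400 bases, -0.03 from 400 to 600 and -0.14 from 600 to 2000. Between days 14 and 8 these medians were 0.05, -0.14 and -0.26, beside 0.36, 0.18 and -0.02 for the members. Most comparisons of days carried such an ordering, with either sign. Over the 52 members it was weakest for day 12 against day 8, where the medians of the length classes were -0.19, -0.08 and -0.11. The rho of the fold change with coding length was 0.33 for day 8 against day 0, 0.57 for day 10, 0.47 for day 12 and -0.43 for day 14 against day 0. Against day 8 it was 0.52 for day 10, 0.18 for day 12 and -0.50 for day 14. Over all 76 tested protein-coding members these were 0.29, 0.47, 0.40 and -0.13 against day 0 and 0.36, 0.14 and -0.28 against day 8, and the rho between the day 8 sets was -0.63. Over the 2243 other genes the rho was 0.12, 0.13, 0.13 and -0.09 against day 0 and -0.03, -0.03 and -0.16 against day 8. These comparisons share the day 0 or day 8 sets and are not independent. The points are genes of the same libraries, so no p is given. The difference between 2 sets of 1 day was thus of the size seen between days: 0.43 for the short members, beside 0.36 for the same members between days 14 and 8 and -0.19 between days 10 and 0. Library preparation and mouse cannot be told apart in it.

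**Figure D4:**
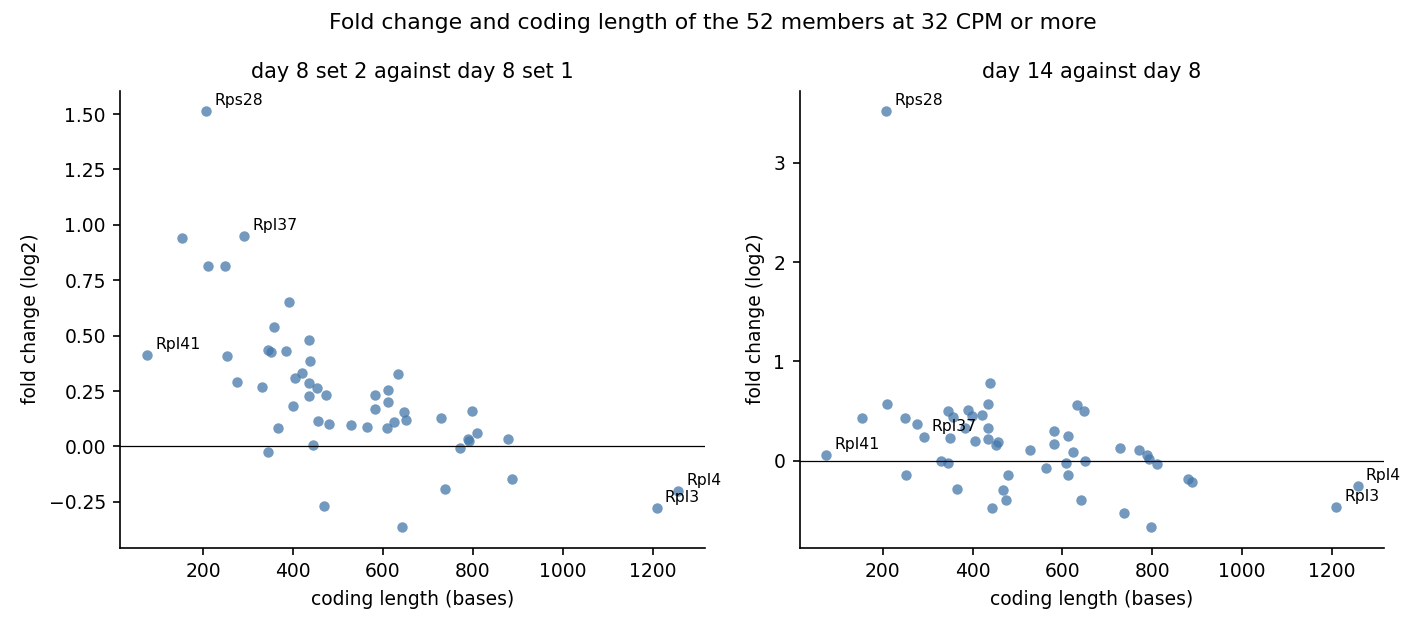
Log2 fold change against coding length (bases) for the 52 members at 32 CPM or more, between the 2 day 8 sets (left) and between days 14 and 8 (right). The 17 members under 400 bases have medians of 0.43 and 0.36, against 0.06 and -0.02 for the 19 from 600 bases, and Rps28 lies at 1.51 and 3.52.

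Rps28 was called in 5 of the 7 comparisons. The gene encodes a small protein of the small-subunit head and lies at chr17:33819027-33824562 on the minus strand of GRCm38 (GENCODE vM21), where its exons overlap in part those of Kank3 on the plus strand. It measured 44.6, 9.01, 26.6, 12.3, 13.5 and 204 CPM in set order. Day 14 was far above every other set, and days 10 and 12 lay between the 2 day 8 sets. By edgeR, the log2 fold changes against day 0 were -1.33 (SE 0.32, adjusted p = 0.00673) for day 8, -1.86 (SE 0.40, adjusted p = 0.00488) for day 10, -1.72 (SE 0.40, adjusted p = 0.0447) for day 12 and 2.19 (SE 0.40, adjusted p = 0.000516) for day 14. Against day 8, day 14 was 3.52 higher (SE 0.32, edgeR adjusted p = 5.98e-12). These SEs and p-values draw mostly on the spread pooled over genes. The 2 day 8 sets of Rps28 differed by a log2 ratio of 1.51, which is larger in size than its day 8 to day 0 fold change. When the fit was scaled to the sum of the members instead, the call held in the same 5 comparisons, where 4.4%, 1.34%, 0.271%, 1.66% and 12.7% of all genes were called. In the remaining comparisons, days 10 and 12 against day 8, that fit called 0 members beside 0.845% and 2.57% of all genes.

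The size of these differences leaned on single sets and on whether rows sharing the sequence of Rps28 were added to it. Which of these rows the reads came from was not tested. Without day 8 set 1 the day 8 to day 0 value was -0.73, and without set 2 it was -2.31. The day 14 to day 8 value was 2.90 and 4.498 in the same way. The 8 rows that share sequence with Rps28 summed to 293, 180, 309, 208, 210 and 399 CPM in set order, so they held more reads than Rps28 in every set. When the rows sharing a member's sequence were added to it, an alternative chosen after the data were seen, the day 14 to day 8 difference of Rps28 was 1.21 (edgeR adjusted p = 0.000335). The 4 differences from day 0 then did not pass (edgeR adjusted p = 0.496, 0.406, 0.647 and 0.157 for days 8, 10, 12 and 14). DESeq2's Wald test on Rps28 alone passed for day 14 against day 8 (adjusted p = 0.0289) and not against day 0 (adjusted p = 0.715, 0.853, 0.9998 and 0.691). With cells of at least 200000 reads and 2000 genes, which leave 4 cells on day 14, day 14 against day 8 was 2.41 (edgeR adjusted p = 0.00378), and the differences from day 0 did not pass.

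The Rps28 reads were spread over the cells and rested on few reads in each. In set order, the median kept cell held 7 (range 1 to 24), 2 (0 to 17), 7 (1 to 29), 3 (0 to 21), 2 (0 to 11) and 15 (7 to 38) reads. All 47 day 14 cells, all 92 day 0 cells and all 93 cells of day 8 set 2 had a read. In the other sets 81 of 90, 80 of 93 and 72 of 85 did. The day 14 range overlapped that of every other set.

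Rps28 was negatively related to its family across cells. Its rank correlation with the summed other members, in cells thinned to 50000 reads, was -0.21, -0.13, -0.24, -0.18, -0.09 and -0.50 from day 0 to day 14. Among the 52 members at 32 CPM or more it was the lowest in every set other than day 8 set 1, where Rpl10 was lower. The medians over those members were 0.27 to 0.31 in the first 5 sets and 0.54 on day 14. Rps3 gave the highest value on day 0 (0.64), in day 8 set 1 (0.60) and on day 10 (0.66). The share of a cell's reads in Rps28 rose with its share in Slc34a2, with rank correlations of 0.50, 0.35, 0.50, 0.19, 0.30 and 0.79, and was lower at higher gene-to-spike ratio (-0.42, -0.25, -0.18, -0.15, -0.15 and -0.56). The second relation was not particular to Rps28: in day 8 set 1, on day 10 and on day 12 other members at 32 CPM or more were lower, such as Rps20 at -0.35, -0.18 and -0.22. On day 14 the 49 wells below the cell filter had a median of 30208 reads in genes and held 14.2 Rps28 reads each on average, beside 17.4 in the 47 kept cells. Rps28 was 1.05% of the member reads of the kept day 14 cells and 8.43% of those of the wells below the filter. The part of Slc34a2 and of low cDNA in the Rps28 difference was not tested.

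**Figure D5:**
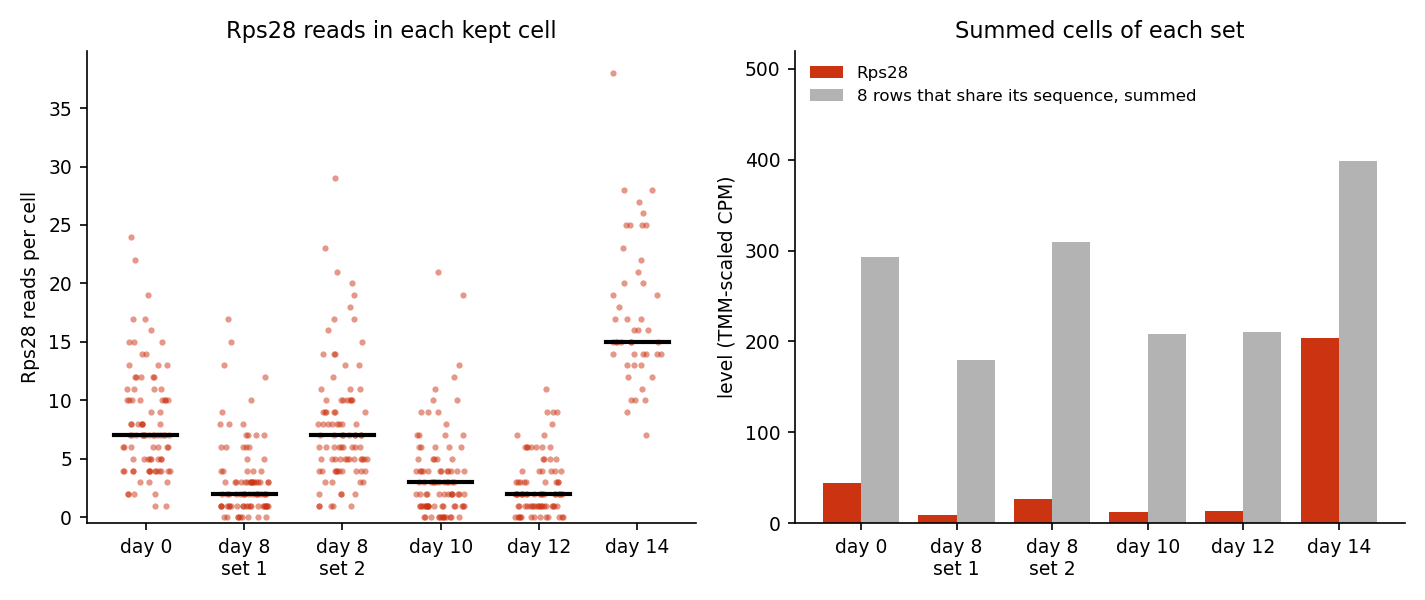
Left, Rps28 reads in each kept cell by set, with the median as a black line (15 on day 14, 2 to 7 in the others). Right, TMM-scaled CPM of the summed cells for Rps28 (red) and for the 8 rows that share its sequence (grey), which lie above Rps28 in all 6 sets.

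Rpl27, a large-subunit protein, was the other called member that fell. Its gene lies at chr11:101442298-101445529 on the plus strand. It had 15.98, 25.1, 31.3, 26.01, 17 and 9.73 CPM in set order, lowest on day 14. Day 14 lay below day 8 by a log2 fold change of -1.53 (SE 0.43, edgeR adjusted p = 0.0105), from 39 reads on day 14, and below day 0 by less than the threshold (-0.72, SE 0.47, edgeR adjusted p = 0.542). It also passed against the sum of the members. Under limma voom the same difference did not pass (adjusted p = 0.220). Rps16 (chr7:28350652-28353155, plus strand), a small-subunit protein, measured 84.8, 63.6, 83.1, 84.1, 68.2 and 126 CPM and was higher on day 14 than on day 8 (0.78, SE 0.27, edgeR adjusted p = 0.0412). It did not pass against the sum of the members, nor with its 4 sequence-sharing rows added (0.39, edgeR adjusted p = 0.335). The call was also lost under DESeq2's Wald test (adjusted p = 0.113), limma voom (0.184), with no gene filter (0.242), with the deeper cells (0.153) and in thinned cells (0.289).

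Further members lay more than 1 log2 unit from the member median in a comparison without being called. Rpl6l, Rps3a2, Rps3a3 and Rps4l are 4 of the 5 annotated pseudogenes, and their summed reads over all sets were 580, 89, 781 and 1303. Rps27 (1111 reads) differed by -0.97 between days 14 and 0 (SE 0.64, edgeR adjusted p = 0.555). With its sequence-sharing rows added it was instead higher on day 14 than on day 8 (0.94, edgeR adjusted p = 0.0177), together with Rpl23a (0.75, edgeR adjusted p = 0.0387) and Rpl37a (0.72, edgeR adjusted p = 0.0425). Rps4l differed by -1.55 between days 12 and 8 (SE 0.53, edgeR adjusted p = 0.120).

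Members with a paralogue were expressed unequally within each pair. Per kb of exon, Rpl3 had 52.04 CPM and its muscle paralogue Rpl3l 0.262, and Rpl39 had 120 and Rpl39l 0.295. Rpl10 had 21.5 and Rpl10l 0.0857, and Rps4x had 83.2 and Rps4l 10.9. Rpl7 had 84.3 and Rpl7l1 33.3, and Rpl22 had 70.8 and Rpl22l1 17.2. Rps27l, which is known as a p53 target, had 296 CPM per kb against 8.35 for Rps27, whose sequence is almost wholly shared with other loci. Rps27l measured 228, 236, 313, 227, 197 and 248 CPM in set order. Its difference between days 8 and 0 was 0.27, with a 95% interval of -0.28 to 0.81 (edgeR adjusted p = 0.649). Rpl22 and Rpl22l1 differed between days 8 and 0 by 0.02 and -0.19, and neither passed.

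The X-linked members are Rpl10, Rpl36a, Rpl39 and Rps4x. Rps4x was the steadiest, at 129 to 143 CPM over the 6 sets. Rpl39 measured 179, 120, 231, 124, 140 and 237 CPM, and the 2 day 8 sets spanned nearly its whole range. Rpl10 measured 55.4 CPM on day 0 and 33.2 on day 14 (-0.74, SE 0.35, edgeR adjusted p = 0.336), and Rpl36a 14.7 to 22.7 CPM. None of the 4 passed in any comparison by edgeR.

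Genes around the ribosome were read in the same fit. The 8 other ribosome components found, among them the P-stalk proteins Rplp0, Rplp1 and Rplp2 and the scaffold Rack1, had 0 calls in any of the 7 comparisons, as did 17 other TOP mRNAs such as translation factors. Rplp0 measured 1531, 1681, 1596, 1721, 1500 and 1562 CPM, and its partner Rplp1 measured 387, 341, 460, 383, 351 and 601. Across cells of a set the members' share had a rank correlation of 0.65 to 0.80 with the other components and of 0.23 to 0.74 with 32 ribosome biogenesis genes. The biogenesis genes, which make and process ribosomal RNA, had more calls: 7 of 32 rose and 0 fell between days 8 and 0 (median 0.71), and 0 rose and 14 fell between days 14 and 8 (median -0.82). Nolc1, a nucleolar chaperone, differed by 1.09 between days 8 and 0 (SE 0.28, edgeR adjusted p = 0.0104). The difference between this list and the members was not tested. Of 81 mitochondrial ribosomal protein genes tested, 2 rose between days 8 and 0 (median 0.31) and 8 fell between days 14 and 8 (median -0.36), with 0 calls in the other direction in both. Over all 15145 tested genes 5.63% and 14.2% were called in either direction, and neither total for the mitochondrial list exceeded that share. By direction, 396 of all tested genes rose between days 8 and 0, and 997 fell between days 14 and 8. The 8 mitochondrial genes that fell were a larger share than that, and the 2 that rose were not.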

How the data were processed

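Single sorted GMPs gave Smart-seq2 cDNA and Nextera XT libraries, per the labels' protocols. The deposited values are raw read counts for each gene in each cell, made by the authors with GSNAP 2015-09-29 and HTSeq 0.5.3p3 on mm10, per the submitters' processing notes. The counting mode is not given in the sources used here. Neither step marks strand, and 37 of the 84 members overlap an exon of another gene. The row for reads with several alignments holds 0 in all cells, and ambiguous reads, 10.5 to 17.2 per 100 reads in genes, have their own row. Rows that name no gene held 85.1% to 92.9% of reads per set and were left out, as were spike-ins.

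Of 574 labelled cells, 573 had a column, and 1 column was not used. Cells were kept from 50000 gene reads and 1000 genes upward, and the 500 kept were summed per set (4849678 to 30691997 reads). Symbols, exon lengths and transcripts came from GENCODE vM21 (GRCm38), with a symbol for 45143 of 46078 rows. The fit used edgeR 4.0.16 in R 4.3.3, a mean per day and TMM factors, with genes passing filterByExpr that were seen in 10% or more of the kept cells of some set. It had 1 residual and 51.5 prior degrees of freedom, and each other day, with 1 set, takes its spread from day 8. On simulated counts over 15145 genes for day 8 against day 0, it called 48 of 50 genes lowered by 2 log2 units, 22 of 50 lowered by 1, 21 of 50 raised by 1 and 50 of 50 raised by 2. The changed genes were drawn from the better covered ones, with the fit's own dispersions, and 6 unchanged genes were called. These rates therefore do not cover members of low level. Alternatives used DESeq2 1.42.0, limma 3.58.1, other filters, thinned cells and omitted sets. The members and lists were chosen with earlier results of these data known. Named members are the 5 highest and lowest per kb, those called, those over 1 log2 unit from the member median, paralogue pairs, X-linked and untested members. Some of the members this rule names are not reported here. Rps6, Rpl15, Rps19, the short members and the pairs with sequence-sharing rows were chosen after their values were seen.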

Additional observations from a re-analysis of the deposited data

Results flagged for a closer look

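Rps28 gave a signal in wells that the comparisons did not use. The 49 day 14 wells below the cell filter held 14.2 Rps28 reads each on average, and 48 of them had a read. The 4 day 0 wells below the filter held 4.5 on average, and the wells below the filter of the other 4 sets held 1 to 3.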

How the results depend on the processing

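No paired analysis was possible because the labels number sets on day 8 alone. The single call of Rps28 in each comparison with day 0 became 0 calls under DESeq2's Wald test, with cells thinned to 50000 reads (edgeR, limma voom and DESeq2) and with sequence-sharing rows added. With cells of at least 200000 reads and 2000 genes it became 0 for days 8, 10 and 12 and 3 for day 14 (Rpl15, Rpl22l1 and Rps27). On day 12 it was also 0 with DESeq2 size factors, limma voom, without Slc34a2 and CT010467.1, without the day 14 set and, against the sum of the members, with a median of ratios or thinned cells. The 3 calls of day 14 against day 8 became 1 under limma voom, 6 with the deeper cells, 5 with sequence-sharing rows added and 0 in the thinned cells by edgeR, limma voom and DESeq2, and the 2 calls against the sum became 1 in thinned cells. With TMM factors, edgeR and limma voom called 0 of all genes in thinned cells for the comparisons with day 0 and for day 14 against day 8, where DESeq2 called 35 genes for day 8 against day 0. Scaled to the sum of the members, edgeR called 352 genes in thinned cells for day 8 against day 0 and 1077 for day 14 against day 8, and Rps28 passed there for days 8, 10 and 14 against day 0. The folds of Rps28 against day 0 on days 8, 10, 12 and 14 were -1.31, -1.85, -1.71 and 2.22 under DESeq2 and -1.27, -1.91, -1.28 and 2.36 by edgeR in thinned cells, close to the reported ones except on day 12 in thinned cells. With sequence-sharing rows added they were smaller, at -0.37, -0.62, -0.60 and 0.84. The size of the day 14 fold of Rps28 against day 0 moved with the cell filter. It was 2.86 with no cell filter, 2.19 as reported and 1.22 with the deeper cells, which number 4 on day 14. The folds of days 8, 10 and 12 moved less, to -1.19, -1.62 and -1.82 with the deeper cells. Against day 8 the day 14 fold was likewise larger with no cell filter and smaller with the deeper cells.

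The member median of day 14 against day 0 was 0.0031 with the deeper cells. That of day 14 against day 8 was -0.10 with no gene filter, 0.22 with sequence-sharing rows added and -0.087 to 0.10 without either day 8 set. That of day 12 against day 8 was -0.30 to -0.068 without either. Relative to day 0, the read share of day 14 (0.869) was 1.06 without Slc34a2 and CT010467.1, 0.734 with no cell filter, 0.994 with the deeper cells and 0.778 per spike-in read. Per spike-in read the day 8 sets were both at 1.99 and day 10 at 1.49. Leaving out a day 8 set removes the residual degree of freedom, so those are values with no test. Day 14 has the fewest cells and reads, which limits its precision.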
